A study of Mus musculus with 4 samples.

Results

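The genes described here encode BATF, its AP-1 relatives and the IRF proteins that share DNA sites with them in T cells. They were chosen as a list of 10 gene symbols, and a gene was kept where the deposited table had a row annotated to that symbol alone. In all 9 of the 10 were kept, of 14860 genes measured this way: Batf, Irf4, Irf8, Jun, Junb, Jund, Fos, Fosl2 and Atf3. Each had 1 such row. Batf3 was dropped because its 1 row is also annotated to Rn28s1, a ribosomal RNA gene.

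The arrays compared naive CD4 T cells of C57BL/6 mice treated with 150 nM JQ1 (2 samples) with the same kind of cells given DMSO, its solvent (2 samples). JQ1 is a small molecule that occupies the bromodomains of the BET proteins and displaces them from acetylated chromatin. Cells of both groups were purified from spleen by magnetic beads to over 90% purity, stimulated with beads against CD3 and CD28, and polarised towards TH17 cells with 5 ng/ml TGF-β1, 20 ng/ml IL-6, 20 ng/ml IL-23 and 10 μg/ml each of antibodies to IFN-γ and IL-4. The samples are labelled 48 hours, although the treatment text also speaks of a stimulation lasting 4 days. Whether the replicates are separate mice, separate cultures or repeats of 1 RNA is not stated, so every p-value here reflects only how far these 4 samples scatter, and that scatter may be technical.

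AP-1 factors are pairs of leucine zipper proteins. A JUN protein (JUN, JUNB, JUND) pairs with a FOS protein (FOS, FOSL2), with an ATF protein or with BATF, and the pair binds a short DNA element. BATF has no activation domain of its own. In helper T cells BATF with a JUN partner recruits IRF4 or IRF8 to composite AP-1 and IRF elements, and mouse T cells without BATF or IRF4 make few TH17 cells. IRF4 binds DNA weakly alone and depends on such partners.

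Of 11 measured T cell markers, all were above a background reference in both groups, and Il17f and Il17a, the defining cytokines of TH17 cells, were above it with DMSO. The reference was a log2 signal of 5.80, a level exceeded by 5% of 800 genes for odour and pheromone receptors, which T cells are not known to use. Values are RMA log2 signals, in which 1 unit is a doubling, and they do not rank one gene's level against another's. Over the 14860 genes Pearson r was 0.981 to 0.982 between arrays of a group and 0.976 to 0.980 between groups, across genes, which are not independent replicates. The middle gene of the whole table changed by -0.09 (JQ1 minus DMSO), with 0.0014 among the dimmest genes (signal of 4 or less) and -0.20 among the brightest (over 9). Median centring moved it to 0.03, so a small negative change of a bright gene is close to this offset.

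With JQ1, Batf, Irf8 and Fosl2 were lower, Jun was lower on both arrays by a smaller margin, and Irf4, Jund, Fos, Junb and Atf3 overlapped between the groups. With p-values of the limma fit adjusted by Benjamini-Hochberg across the whole table, none of the 9 reached 0.05 (adjusted p between 0.311 and 0.893). The background share of genes past that test was 0.00673% (1 of 14860). At an unadjusted limma p below 0.05, 3 of the 9 were lower, where 8.26% of all genes were (1228), and 0 were higher, where 1.72% were (255). After median centring those genome-wide counts were 679 lower and 572 higher, and the lower genes among the 9 then numbered 2, Batf and Irf8. They numbered 1, Irf8, without JQ1 replicate 1 or without DMSO replicate 1, where lower genes over the whole table were 689 (4.64%) and 823 (5.54%). Single arrays also moved the size of changes. Without DMSO replicate 2 the change was 0.77 for Atf3, -0.56 for Jund and -0.34 for Fosl2, against 0.46, -0.26 and -0.43 with all 4 arrays. Both JQ1 arrays lay below both DMSO arrays for 4 of the 9 (31.4% of all genes) and above them for 0 (10% of all genes). The median change of the 9 was -0.26, beside -0.09 for all genes, and 7 of the 9 changes were negative, as were 66.2% of all genes.

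**Figure D1:**
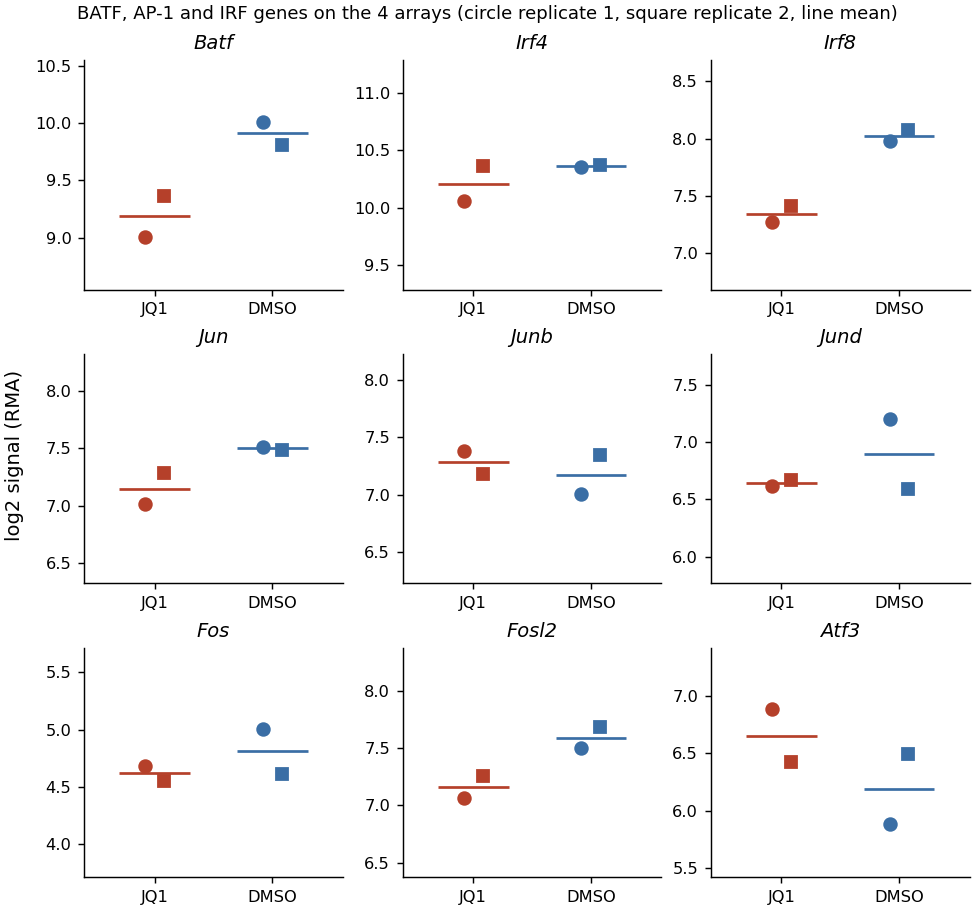
RMA log2 signal of each gene (y axis, each panel spans 2 log2 units) on the JQ1 arrays (left, red) and DMSO arrays (right, blue); circles are replicate 1, squares replicate 2, lines group means. The groups are apart for Batf, Irf8, Jun and Fosl2 and overlap for the other 5.

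Batf (Entrez gene 53314) encodes the AP-1 factor that is itself required for TH17 cells. It read 9.004 and 9.365 on the JQ1 arrays, against 10.013 and 9.811 on the DMSO arrays. Both JQ1 arrays were below both DMSO arrays, and the 4 differences between a JQ1 and a DMSO array ran from -1.01 to -0.45. The means were 9.18 ± 0.26 with JQ1 and 9.91 ± 0.14 with DMSO (SD, n = 2 each). The change was -0.73 (SE 0.19, interval at 95% from -1.20 to -0.26), a 1.66-fold lower signal (limma unadjusted p = 0.00991, adjusted p = 0.363). Relative to the middle gene it was -0.64, and 2.89% of all genes had a change as low. Genes as bright as Batf (signal over 9) had a median change of -0.20. The Batf change was -0.50 after quantile normalization, -0.61 after median centring and -0.53 after cyclic loess. Fewer cells of a type and less RNA per cell cannot be told apart in such bulk samples. The unadjusted p was 0.0546 without JQ1 replicate 1 and 0.0506 without DMSO replicate 1.

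Irf4 (Entrez gene 16364), the IRF partner of BATF, was bright in both groups. Its signal was 10.06 and 10.36 with JQ1 and 10.35 and 10.37 with DMSO. JQ1 replicate 1 stood lower, while JQ1 replicate 2 lay between the DMSO arrays. The change was -0.16 (SE 0.17, interval from -0.58 to 0.26, limma adjusted p = 0.814). The -0.73 of Batf lay outside this interval, but the interval of Batf itself (-1.20 to -0.26) overlapped it. The intervals thus do not settle whether the 2 genes changed unequally. The sign turned with the scaling, to 0.061 after quantile normalization and 0.046 after cyclic loess.

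Irf8 (Entrez gene 15900), a factor of the same IRF subfamily that is also abundant in B cells and dendritic cells, read 7.27 and 7.41 with JQ1, against 7.98 and 8.07 with DMSO. The groups were apart, with array differences from -0.80 to -0.57. The means were 7.34 ± 0.10 with JQ1 and 8.03 ± 0.066 with DMSO (SD, n = 2 each), a 1.61-fold lower signal. The change was -0.68 (SE 0.15, interval from -1.06 to -0.31; limma unadjusted p = 0.00471, adjusted p = 0.311), the smallest p of the 9. It was below 0.05 in all 14 alternatives in which it was recomputed, at a change from -0.76 to -0.54.

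Markers of cells that could carry Irf8 were read beside it. Of 9 measured B cell markers, 0 were lower at an unadjusted limma p below 0.05, where 8.26% of all genes were. Both JQ1 arrays lay below both DMSO arrays for 4 of these 9 (31.4% of all genes) and above them for 0 (10% of all genes). In both groups 6 of the 9 were under the background reference. Pax5, the only one above it in both groups, read 5.90 and 6.09 with JQ1 and 6.26 and 6.17 with DMSO. The mean log2 signal of the 9 was 4.97 to 5.19 on JQ1 arrays and 5.16 to 5.21 on DMSO arrays. Cd79b, a chain of the B cell receptor, read 5.46 and 5.31 with JQ1 and 5.67 and 6.35 with DMSO. Cd79a, its partner chain, read 5.60 and 5.60 with JQ1 and 6.07 and 5.81 with DMSO. The JQ1 means of Cd79b (5.38) and Cd79a (5.60) lay under the reference. The changes of the 9 B cell markers ran from -0.63 to 0.30, with a median of -0.03. All 11 measured markers of dendritic cells and macrophages were under the reference in both groups, with mean signals of 4.78 to 4.85 with JQ1 and 4.61 to 4.99 with DMSO. The dendritic cell marker Itgax was not analysed here. The part of the B cell markers in the Irf8 result was not tested. Both CD8 markers, Cd8a and Cd8b1, were lower on both JQ1 arrays, with mean signals of 5.52 to 6.08 with JQ1 and 6.45 with DMSO, and of 4 natural killer markers 1 was lower at an unadjusted limma p below 0.05, Klrd1 (change -1.73, SE 0.25). The JQ1 means of Klrd1 (5.01) and Cd8a (5.38) lay under the background reference. Of the 11 T cell markers 1 was lower at that threshold, Thy1 (change -0.71, SE 0.21), a surface protein of T cells. Its call was lost without JQ1 replicate 1 or DMSO replicate 1. Their part in the results was not tested either.

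Of the 3 JUN genes, Jun (Entrez gene 16476), the founding member, read 7.01 and 7.28 with JQ1 and 7.51 and 7.49 with DMSO. Both JQ1 arrays were lower, with array differences from -0.50 to -0.20 and a change of -0.35 (SE 0.16, interval from -0.76 to 0.05; limma unadjusted p = 0.0773, adjusted p = 0.542). The Jun change was -0.22 without JQ1 replicate 1 and after quantile normalization, and -0.23 after median centring or cyclic loess. Junb (Entrez gene 16477), a partner of BATF in mouse TH17 cells, read 7.38 and 7.18 with JQ1 and 7.002 and 7.343 with DMSO. Its groups overlapped, and the change was 0.11 (SE 0.18, interval from -0.35 to 0.57; limma adjusted p = 0.893). Jund (Entrez gene 16478), the most widely expressed JUN gene, read 6.61 and 6.67 with JQ1 and 7.20 and 6.59 with DMSO. DMSO replicate 1 alone was high. The Jund change of -0.26 (SE 0.23, limma adjusted p = 0.768) became 0.052 without that array and -0.56 without DMSO replicate 2. The Junb change became -0.060 without DMSO replicate 1.

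The FOS genes also differed in how well the arrays could read them. Fos (Entrez gene 14281), an immediate early gene of cell stimulation, read 4.69 and 4.56 with JQ1 and 5.01 and 4.62 with DMSO. These signals lie under the reference of 5.80 on every array, and the change of -0.19 (SE 0.19; limma adjusted p = 0.789) became 0.0046 without DMSO replicate 1. Fosl2 (Entrez gene 14284), a regulator of TH17 cell plasticity in mouse, read 7.07 and 7.26 with JQ1, against 7.499 and 7.681 with DMSO. The groups were apart, with a change of -0.43 (SE 0.16, interval from -0.83 to -0.03; 1.35-fold lower, limma unadjusted p = 0.0403, adjusted p = 0.479). The unadjusted p was 0.0821 after quantile normalization, 0.121 after median centring and 0.0832 after cyclic loess, and between 0.0535 and 0.175 with any 1 array left out.

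Atf3 (Entrez gene 11910), a stress-induced member that often represses its targets, read 6.88 and 6.43 with JQ1 and 5.89 and 6.50 with DMSO. JQ1 replicate 1 was the high array and DMSO replicate 1 the low one, while both second replicates were close together. The SDs of 0.32 with JQ1 and 0.43 with DMSO were among the widest of the 9, and the change of 0.46 (SE 0.27, interval from -0.22 to 1.14; limma adjusted p = 0.629) ranged from 0.16 to 0.77 with 1 array left out.

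**Figure D2:**
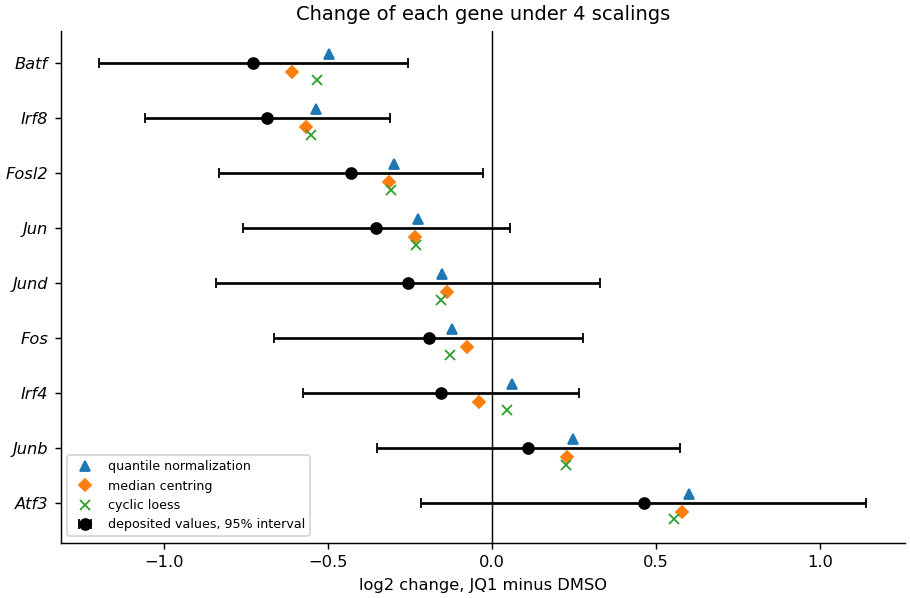
Log2 change (x axis, JQ1 minus DMSO) of each gene in the deposited values with limma's 95% interval (black) and after 3 further scalings (coloured marks). The intervals of Batf, Irf8 and Fosl2 lie below 0, and the mark of Irf4 crosses 0 with the scaling.

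To ask whether members changed unequally, the difference of 2 log2 signals was taken within each array. Batf minus Irf4 was -1.05 and -0.996 with JQ1, against -0.34 and -0.56 with DMSO, so the pair moved apart by -0.57. Irf4 minus Irf8 was 2.79 and 2.95 with JQ1, against 2.37 and 2.30 with DMSO, a difference of 0.53. Batf minus Junb was 1.62 and 2.18 with JQ1, against 3.01 and 2.47 with DMSO, a difference of -0.84. The arrays of the groups did not overlap in any of these, nor in Jun minus Junb (difference -0.46), and they overlapped in Fos minus Fosl2 (0.24). In a two-sided exact permutation test the first 4 pairs had p = 0.333 and the last p = 0.667 (adjusted over the 5 pairs, 0.417 and 0.667), and 2 arrays against 2 cannot go below 0.333. Without JQ1 replicate 1 or DMSO replicate 1, Batf minus Junb differed by -0.56 and -0.57, and Jun minus Junb by -0.23 and -0.28 (exact permutation p = 0.667 for each). These levels are differences between rows on the RMA scale, so their size within a group has no meaning, while the shift between groups does. The 2 planned pairs with Batf3 were not analysed here.

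**Figure D3:**
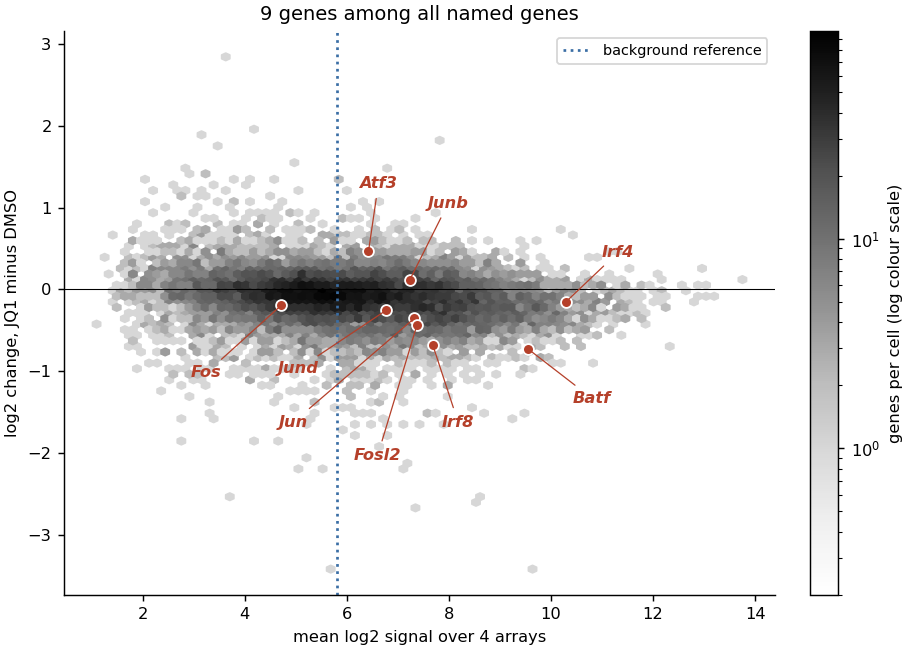
Log2 change (y axis, JQ1 minus DMSO) against the mean log2 signal over 4 arrays (x axis) for all 14860 genes (grey, darker where more genes lie) with the 9 genes marked; the dotted line is the background reference of 5.80. Batf (-0.73) and Irf8 (-0.68) lie lowest of the 9, Atf3 (0.46) lies highest, and Fos is left of the line.

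The sequences before the start sites are shown for the 3 genes lower at an unadjusted p below 0.05, for Irf4 as the partner that overlapped between the groups, and for Jun, whose promoter holds a site described in its own regulation. Each is the 250 bases before the start site in the RefSeq promoter table of GRCm38.p6, printed along the gene's strand. Capitals mark letters of the motifs searched on both strands: the AP-1 element (TGANTCA), the CRE (TGACGTCA), the Jun variant of it (TGACATCA), the interferon response element (GAAANNGAAA), 2 forms of the composite AP-1 and IRF element (TGANTCANNNNGAAA and GAAATGANTCA, both of which contain the AP-1 element), the TATA box (TATAAA) and CCAAT.
Batf, chr12:85686470-85686719, plus strand: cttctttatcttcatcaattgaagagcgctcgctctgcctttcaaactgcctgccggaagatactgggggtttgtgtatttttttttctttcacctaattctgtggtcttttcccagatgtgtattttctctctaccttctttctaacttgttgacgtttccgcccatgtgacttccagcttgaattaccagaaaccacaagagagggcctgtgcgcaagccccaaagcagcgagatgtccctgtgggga
Irf8, chr8:120736108-120736357, plus strand: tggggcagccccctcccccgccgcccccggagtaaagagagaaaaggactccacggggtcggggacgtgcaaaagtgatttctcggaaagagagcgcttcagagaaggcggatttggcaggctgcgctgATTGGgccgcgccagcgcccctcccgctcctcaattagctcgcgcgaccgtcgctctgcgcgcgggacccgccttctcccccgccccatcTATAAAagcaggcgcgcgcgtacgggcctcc
Fosl2, chr5:32136222-32136471, plus strand: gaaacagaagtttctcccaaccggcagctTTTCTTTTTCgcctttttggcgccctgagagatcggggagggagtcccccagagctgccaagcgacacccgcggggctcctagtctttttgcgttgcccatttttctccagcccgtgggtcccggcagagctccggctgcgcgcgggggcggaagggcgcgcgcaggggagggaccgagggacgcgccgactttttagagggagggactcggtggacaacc
Irf4, chr13:30748983-30749232, plus strand: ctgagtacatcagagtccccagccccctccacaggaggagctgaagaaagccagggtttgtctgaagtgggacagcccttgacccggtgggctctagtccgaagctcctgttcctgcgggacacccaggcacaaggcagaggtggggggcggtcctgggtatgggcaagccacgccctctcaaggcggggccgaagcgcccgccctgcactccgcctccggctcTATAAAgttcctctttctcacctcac
Jun, chr4:95052223-95052472, minus strand: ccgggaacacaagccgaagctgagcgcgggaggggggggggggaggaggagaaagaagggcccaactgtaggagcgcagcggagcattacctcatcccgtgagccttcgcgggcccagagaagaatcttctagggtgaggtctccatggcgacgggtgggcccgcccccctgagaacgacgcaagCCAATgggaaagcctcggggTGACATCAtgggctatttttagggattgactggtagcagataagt

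All 10 listed genes matched the table, with 11 start sites, 2 of them of Irf8, of which the first listed is shown. The AP-1 element, the CRE and both composite forms were in 0 of the 11 windows, against 6.75%, 1.55%, 0.0974% and 0.1% of 32851 promoters of the same length. The Jun variant was in the Jun window, 45 bases before the start (2.93% of all promoters), and the interferon response element in the Fosl2 window, at 221 bases (2.98%). A TATA box was in the Fos, Irf4 and Irf8 windows, 33, 26 and 31 bases before the start (12.4% of all promoters). CCAAT was in the Irf8, Jun and Junb windows (33.8% of all promoters). Thus Batf, Irf8 and Fosl2 had no searched motif in common in these windows. A match is a description of letters, and its absence says nothing of sites elsewhere.

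Neighbouring genes were described as well. Batf, Jdp2 and Fos lie next to each other on chromosome 12. Jdp2, which encodes an AP-1 repressor and sits between the other two, read 5.63 and 5.68 with JQ1 and 5.84 and 5.97 with DMSO, a change of -0.25 (SE 0.15; limma adjusted p = 0.626). Of 50 protein-coding genes within 3 places of a listed gene, other than the listed genes, 41 were measured and had a median change of -0.08. At an unadjusted limma p below 0.05, 2 of them were lower (8.26% of all genes) and 1 was higher (1.72% of all genes). The lower ones were Prdx2 (change -0.61), next to Junb, and Get3 (-0.46), 3 places from Junb. The change of Junb itself was 0.11. The higher one was Agtr1a (0.56), 3 places from Irf4. Its means of 4.92 with JQ1 and 4.36 with DMSO were both under the reference. The calls of Prdx2 and Get3 were lost with some single arrays left out, Get3 also after quantile normalization or median centring. These 3 genes were named after their values were seen.

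Among 16 other measured AP-1 and small MAF genes, 2 were lower and 1 higher at an unadjusted limma p below 0.05, and the median change was -0.14. Over all genes, 8.26% were lower and 1.72% higher at that threshold. The lower ones were Maff (-0.46, SE 0.16) and Mafg (-0.44, SE 0.17), small MAF proteins that lack an activation domain. Maff read 5.93 and 6.09 with JQ1, against 6.55 and 6.38 with DMSO. The higher one was Atf7, an ATF2 relative, with 8.28 and 8.38 with JQ1 against 7.89 and 7.89 with DMSO (change 0.44, SE 0.14). These 3 had limma adjusted p between 0.423 and 0.482, and none of the 16 passed. Both lower calls were lost after quantile normalization or median centring and without either JQ1 array. After cyclic loess, and without either DMSO array, 1 of them was left. The Atf7 call was lost with any array left out.

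The other IRF factors, their corepressors and the ETS proteins that share IRF sites made up 10 measured genes. At an unadjusted limma p below 0.05, 0 of them were lower (8.26% of all genes) and 1 was higher (1.72% of all genes). This was Irf2bp1, an IRF2 corepressor, at 7.06 and 7.02 with JQ1 and 6.68 and 6.63 with DMSO (change 0.39, SE 0.14; limma adjusted p = 0.470), a call lost with any array left out. The list's median change was -0.14. Of 16 measured kinases and phosphatases upstream of AP-1, 1 was lower and 0 higher. Dusp4, a phosphatase that inactivates MAP kinases, read 6.24 and 6.67 with JQ1 and 7.40 and 7.08 with DMSO (change -0.79, SE 0.21; limma adjusted p = 0.380). That call was lost without JQ1 replicate 1 or DMSO replicate 1. The median change of that list was -0.04.

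Another 19 genes were listed as immediate early genes, many of which are induced with Fos, Jun and Atf3 when cells are stimulated or handled. At an unadjusted limma p below 0.05, 2 of them were lower (8.26% of all genes) and 1 was higher (1.72% of all genes). The list's median change was -0.02. Myc was at -0.43 (SE 0.14) and Klf6, a zinc finger factor, at -0.40 (SE 0.15). Ier3, a stress and survival gene, read 7.65 and 7.91 with JQ1, against 6.70 and 7.11 with DMSO (change 0.88, SE 0.20; limma adjusted p = 0.334). The calls of Myc and Klf6 were lost under each of the 3 further scalings, that of Myc also with any array left out and that of Klf6 with any but DMSO replicate 1.

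**Figure D4:**
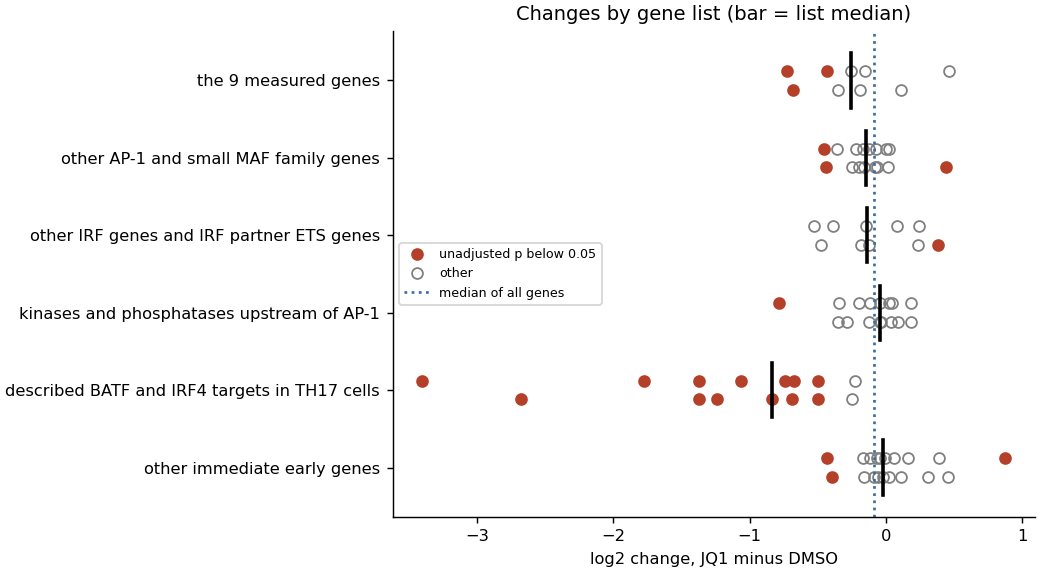
Log2 change (x axis, JQ1 minus DMSO) of every measured gene in each list (rows); filled points have an unadjusted limma p below 0.05, bars are list medians and the dotted line is the median of all genes. The described BATF and IRF4 targets reach from -0.22 down to -3.41, and the medians of the other 4 lists lie between -0.14 and -0.02.

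Genes described as targets of BATF and IRF4 in mouse TH17 cells were mostly lower with JQ1. Of 15 measured, 13 were lower and 0 higher at an unadjusted limma p below 0.05 (8.26% of all genes were lower), 15 had both JQ1 arrays below both DMSO arrays (31.4% of all genes), and 0 passed after adjustment over all genes. The median change was -0.83, beside -0.26 for the 9 factor genes and -0.09 for all genes. The 6 with the smallest p were the cytokine genes Il17f (-3.41, SE 0.24) and Il17a (-1.37, SE 0.16), the receptor genes Ccr6 (-2.68, SE 0.27), Il1r1 (-1.78, SE 0.19) and Il23r (-1.24, SE 0.15), and the nuclear receptor gene Rora (-0.83, SE 0.15). Il23r lay under the background reference in both groups (means of 4.38 with JQ1 and 5.62 with DMSO), and Il17a did with JQ1 (5.79). Il17f read 7.65 and 8.22 with JQ1, against 11.51 and 11.17 with DMSO. The 2 that did not reach that threshold were Prdm1, a transcriptional repressor (-0.22, SE 0.14), and the co-stimulatory receptor gene Icos (-0.25, SE 0.16). Prdm1 also lay under the reference in both groups (means of 5.36 with JQ1 and 5.58 with DMSO). The list was drawn up with earlier results of these data known, so its count is no independent evidence of direction. Il22, Maf and Ctla4 were not analysed here.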

How the data were processed

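The deposited table gives 23332 rows and 1 log2 value per sample. Per the submitters' processing notes, the authors made these log2 values with RMA in Affymetrix Expression Console, a method of background correction, quantile normalization between arrays and summary over probes. Its version and settings are not given in the sources used. The notes name hg19, a human build, for mouse samples, so no coordinate was taken from the files. The platform annotation gave 1 gene for 14996 rows, several for 1019 and none for 7317; 14941 of the 14996 matched RefSeq (GRCm38.p6), used for symbols and neighbours. The brightest row stood for each of 135 genes with several rows.

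The main test was limma's moderated test (limma 3.58.1, R 4.3.3, two-sided, unfiltered, 2 residual plus 3.43 prior degrees of freedom) at 0.05 after Benjamini-Hochberg adjustment across 14860 genes. Pairs of genes were compared by exact permutation. The number of arrays limits the precision. The genes, lists and tests were chosen with earlier results of these data known. The text names the 9 genes and, from each list, up to 6 genes with an unadjusted limma p below 0.05, or else the 2 largest changes. Prdm1 and Icos, the 2 measured targets not below that threshold, are named besides. So are the neighbouring genes Jdp2, Prdx2, Get3 and Agtr1a. Marker genes are named for a question only. Figures used matplotlib 3.10.9 in Python 3.11.15. Alternatives were variance trend, robust prior, 3 scalings, 2 brightness filters, other row choices, a replicate block, arrays left out singly and other thresholds. Changes relative to the median gene, brightness bins, neighbours and alternatives for the other named genes were added after the data were seen.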

Additional observations from a re-analysis of the deposited data

How the results depend on the processing

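Across 15 alternatives, 0 of the 9 genes passed the adjusted threshold, with limma adjusted p from 0.112 to 0.999, and 119 of 124 recomputed changes kept their sign. Those that did not were Irf4 (0.061 after quantile normalization, 0.046 after cyclic loess) and, without DMSO replicate 1, Fos, Junb and Jund. With an array left out, the change ranged from -0.39 to 0.0046 for Fos, from -0.060 to 0.28 for Junb and from -0.56 to 0.052 for Jund, and the difference Fos minus Fosl2 from -0.051 to 0.53, negative without DMSO replicate 2. The cause was not tested. The lower genes at an unadjusted p below 0.05 numbered 3, and 1 to 3 with an array left out (1, Irf8, without JQ1 replicate 1 or DMSO replicate 1). The higher ones numbered 0, and 0 to 1 there (Atf3 without DMSO replicate 2). At an unadjusted p below 0.01 Batf and Irf8 were left, where 2.40% of all genes were lower (356). Genes with groups apart numbered 4, and 5 to 8 with an array left out, which fewer arrays make easier. The 5 related lists held 16, 10, 16, 15 and 19 measured genes. Of these, 18 were lower at an unadjusted limma p below 0.05, 13 of them described targets, where 8.26% of all genes were lower. The 18 became 13 after quantile normalization, 12 after median centring and 14 after cyclic loess. At these settings 5.09%, 4.57% and 5.42% of all genes were lower. Described targets among them numbered 12, 11 and 12. Over all genes, 1 passed the adjusted test, against 3 with a variance trend, 9 above the 25th percentile of brightness, 50 above the median, 3 at an adjusted threshold of 0.1, and 0 with any array left out. The replicate block gave 0. The labels do not pair the replicates (correlation of same-numbered deviations 0.10 across genes), and under the replicate block the genes of the 9 that were lower at an unadjusted p below 0.05 numbered 3, with a change of -0.73 for Batf.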
